A study of Mus musculus with 28 samples.

Results

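BMP5-treated mouse small-intestinal organoids were compared with untreated organoids: 3 BMP5 samples (replicates II, III and VI) and 4 untreated samples (replicates II, III, IV and VI), chosen by their labels, 7 of the 28 samples of the series. Organoids of this kind grow from isolated crypts as pure epithelium inside a gel, and these came from wild-type C57BL/6 mice. All 7 cultures were kept in ENR medium (EGF, noggin and R-spondin) with no added BMP or Tgfb until the debris of the crypt isolation was cleared, and the treated ones then received BMP5 at 500 ng/ml for 24 h. The other ligands of the same table served for direct comparison, with BMP7 in 3 samples, BMP4 in 3 and BMP2 in 4, at the same dose and time. Noggin, an extracellular BMP antagonist, is part of ENR by name, and the labels do not say whether it stayed in the medium during treatment. The labels do not say whether replicates were separate mice or separate cultures, so p-values measure the spread between these samples, which may be technical.

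BMP5 is a secreted ligand of the Tgfb superfamily and belongs, with BMP6 and BMP7, to a subgroup that differs in sequence and receptor preference from BMP2 and BMP4. BMP ligands bind paired type I and type II serine/threonine kinase receptors, which phosphorylate Smad1, Smad5 and Smad9, whereas Tgfb and activins act through Smad2 and Smad3, and both arms share Smad4. In the intestine BMP signalling is low in the crypt, where antagonists are secreted, and rises towards the villus, where cells stop dividing and mature. The Id genes, Smad6 and Smad7 are direct targets, and the last of these inhibits both arms.

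The 7 libraries held 21705913 to 24784834 reads recovered from the deposited values, and 1 read was worth 0.826 to 0.926 normalised counts (read counts divided by a size factor per sample). Mitochondrial transcripts took 5.19 to 7.61% of the signal in untreated and 3.99 to 6.51% in BMP5 samples, with replicate VI highest in both groups. The 6 epithelial markers checked were abundant in all 7 samples. Their summed normalised counts were 95740 to 106620 in untreated and 172760 to 278440 in BMP5 samples, and 5 of the 6 were called higher with BMP5. Fibroblast markers summed to at most 25.7 in any of the 7 samples, smooth muscle markers to at most 6.21, and enteric glia and neuron markers to at most 23.1. Of 4 endothelial markers Kdr and Cdh5 were at 0 in all 7, Tek reached at most 7.10, and Pecam1 was at 569 to 774 in untreated and 595 to 777 in BMP5 samples (limma adjusted p 0.89).

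Promoter sequences are shown for 3 of the genes that rose, Smad6 and Id3 as BMP targets and F3 as a fetal-like gene, and were searched for short motifs of the Smad and AP-1 factors. They run from 250 bases before to 50 bases after the annotated start and come from RefSeq on GRCm38.p6, while the submitters' processing notes name GRCm39. Capitals mark every match, searched on both strands, to GTCTAGAC (the palindrome bound by Smad3 and Smad4), GGCGCC (a GC-rich element bound by Smad1 and Smad5) and TGANTCA (the element bound by AP-1, a dimer of Fos and Jun proteins). The sequences are Smad6 at chr9:64022010-64022309 on the minus strand, Id3 at chr4:136143572-136143871 on the plus strand and F3 at chr3:121723287-121723586 on the plus strand.
Smad6: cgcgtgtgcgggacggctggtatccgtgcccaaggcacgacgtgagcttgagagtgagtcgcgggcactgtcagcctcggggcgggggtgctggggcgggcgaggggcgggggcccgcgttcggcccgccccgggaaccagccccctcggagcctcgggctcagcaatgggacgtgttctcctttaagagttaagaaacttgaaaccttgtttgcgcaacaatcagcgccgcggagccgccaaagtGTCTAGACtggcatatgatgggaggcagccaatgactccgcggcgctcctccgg
Id3: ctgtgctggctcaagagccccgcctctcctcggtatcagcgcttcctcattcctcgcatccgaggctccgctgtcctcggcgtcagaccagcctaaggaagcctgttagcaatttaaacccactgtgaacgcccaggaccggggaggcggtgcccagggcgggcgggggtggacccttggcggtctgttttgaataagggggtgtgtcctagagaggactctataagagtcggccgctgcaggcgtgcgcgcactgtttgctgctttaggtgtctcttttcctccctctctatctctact
F3: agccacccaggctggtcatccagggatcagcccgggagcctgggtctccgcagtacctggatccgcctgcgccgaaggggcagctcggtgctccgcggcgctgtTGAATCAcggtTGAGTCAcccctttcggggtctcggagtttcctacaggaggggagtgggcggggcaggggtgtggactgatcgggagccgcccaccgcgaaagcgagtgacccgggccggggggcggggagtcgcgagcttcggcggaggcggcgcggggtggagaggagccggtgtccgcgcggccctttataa
GTCTAGAC lies across the start of Smad6, from position -4, and 70 of 32851 promoters in the RefSeq table (0.213%) hold these letters. None of the 3 motifs is in the Id3 window. In F3, which encodes tissue factor, the starter of coagulation, TGANTCA is present, and it is found in 7.81% of all promoters. Among genes tested for expression 5.61% of 13450 promoters hold TGANTCA. The share is 12.3% of 1024 promoters of genes called at least 2-fold higher with BMP5 and 8.00% of 300 promoters of genes called at least 2-fold lower. These promoters belong to 10562 genes tested, 768 of them higher and 230 lower. A gene can have several promoters, and some genes tested have none in the RefSeq table. For GGCGCC the shares are 20.1% of promoters of genes tested, 15.8% of those at least 2-fold higher and 11.3% of those at least 2-fold lower. For GTCTAGAC they are 0.253%, 0.195% and 0.00% in the same order. A match of letters describes the window and is not evidence of binding.

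BMP5 changed the expression of 3884 of 14746 genes tested (26.3%), by limma without pairing by replicate number, with Benjamini-Hochberg adjustment at 0.05. Of all genes tested, 2429 (16.5%) were higher and 1455 (9.87%) were lower. Called changes of at least 2-fold numbered 1071 higher (7.26%) and 304 lower (2.06%). The 3 BMP5 and 4 untreated values did not overlap for 5270 genes tested (35.7%), and for 92.5% of the called genes. The median log2 fold change of all genes tested was -0.03. With replicate number as a block the count was 5738, which is 1.48 times as many. The count fell to 2515 without BMP5 replicate III and to 2532 without BMP5 replicate VI. Of the called genes 62.5% were higher, but quantile normalization gave 49.8%, with 2397 higher and 2413 lower.

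**Figure D1:**
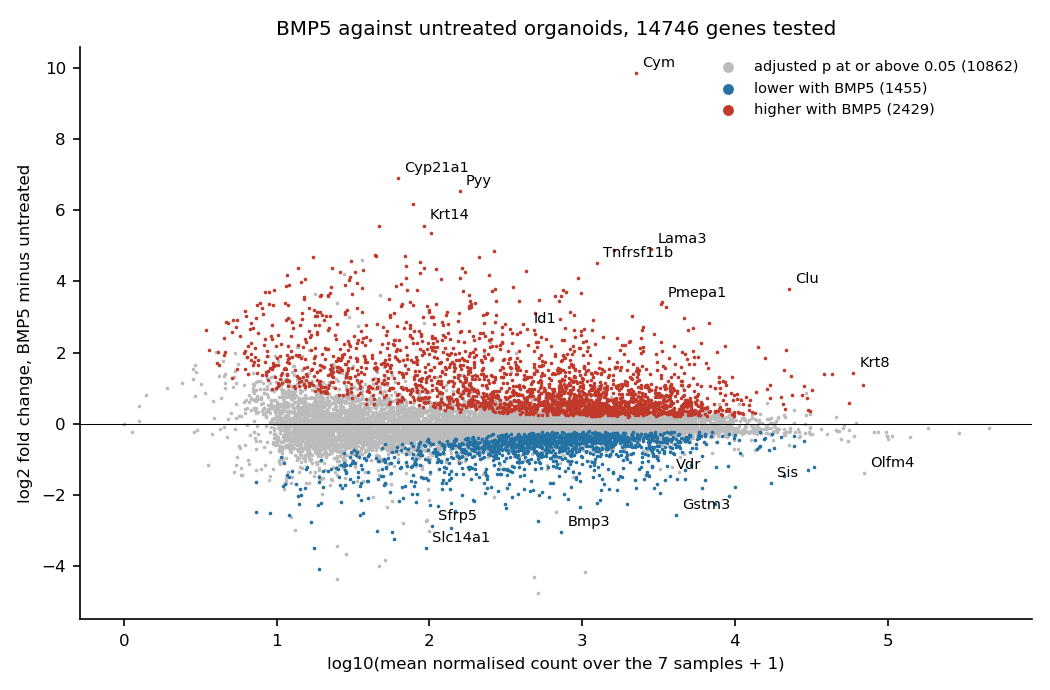
Log2 fold change (BMP5 minus untreated) against the log10 of the mean normalised count over the 7 samples plus 1, with 1 point per gene tested. Red points were called higher (2429), blue points lower (1455) and grey points were not called. The highest point is Cym at 9.86.

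Targets of BMP signalling rose. Of 17 genes on the list of BMP targets and feedback regulators, 13 passed the filter on low values (a mean normalised count of 10 or more in the 20 samples fitted); 8 were higher, 0 were lower and 5 did not pass the test, with a median log2 fold change of 1.41. Id1, an inhibitor of differentiation that blocks basic helix-loop-helix factors, was at 114, 112, 134 and 171 normalised counts in untreated replicates II, III, IV and VI and at 667, 1070 and 792 in BMP5 replicates II, III and VI. The groups did not overlap, and the log2 fold change was 2.65 ± 0.19 (SE; limma adjusted p 7.26e-08). Id3 went from 33.7, 29.9, 20.4 and 32.2 to 123, 378 and 61.1. All 3 BMP5 values lay above the untreated ones, but they spanned a wide range, with replicate VI the lowest and replicate III the highest (log2 fold change 2.27 ± 0.42, limma adjusted p 0.000534). Id2 was at 413, 421, 241 and 310 in untreated samples and at 501, 1000 and 351 with BMP5, so replicate VI fell inside the untreated range. Its log2 fold change of 0.73 had a limma adjusted p of 0.122, and of 0.0291 with the replicate block. Id4 did not pass the test, at 24.8 to 62.2 in untreated and 14.8 to 42.2 in BMP5 samples.

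The inhibitory Smads rose as well. Smad6, which interferes with Smad1 and Smad5, was at 12.4, 32.4, 8.87 and 36.3 in untreated samples and at 86.1, 125 and 101 with BMP5 (log2 fold change 2.37 ± 0.43, limma adjusted p 0.000419). Smad7 was at 103, 106, 145 and 160, and then at 455, 640 and 807 (2.28 ± 0.26, limma adjusted p 3.71e-06). Neither gene's groups overlapped. The other members called higher were Smurf1, an E3 ligase for receptors and Smads (1.41), Fst, which encodes the activin antagonist follistatin (1.81), Hey1 and Msx1. Hey1 was near the floor of 3 reads in untreated samples (0 to 1.78) and reached 8.97 to 11.1, a ratio of means of 9.02 with an exact counting interval of 3.51 to 29.9. Msx1 was at 3.30 to 6.22 and at 5.47 to 25.9, with replicate VI inside the untreated range; its call was lost without BMP5 replicate III (adjusted p 0.123). Bambi, a decoy receptor, and Atoh8 did not pass the test. Smurf2 had an adjusted p of 0.0616, and of 0.00402 with the replicate block.

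**Figure D2:**
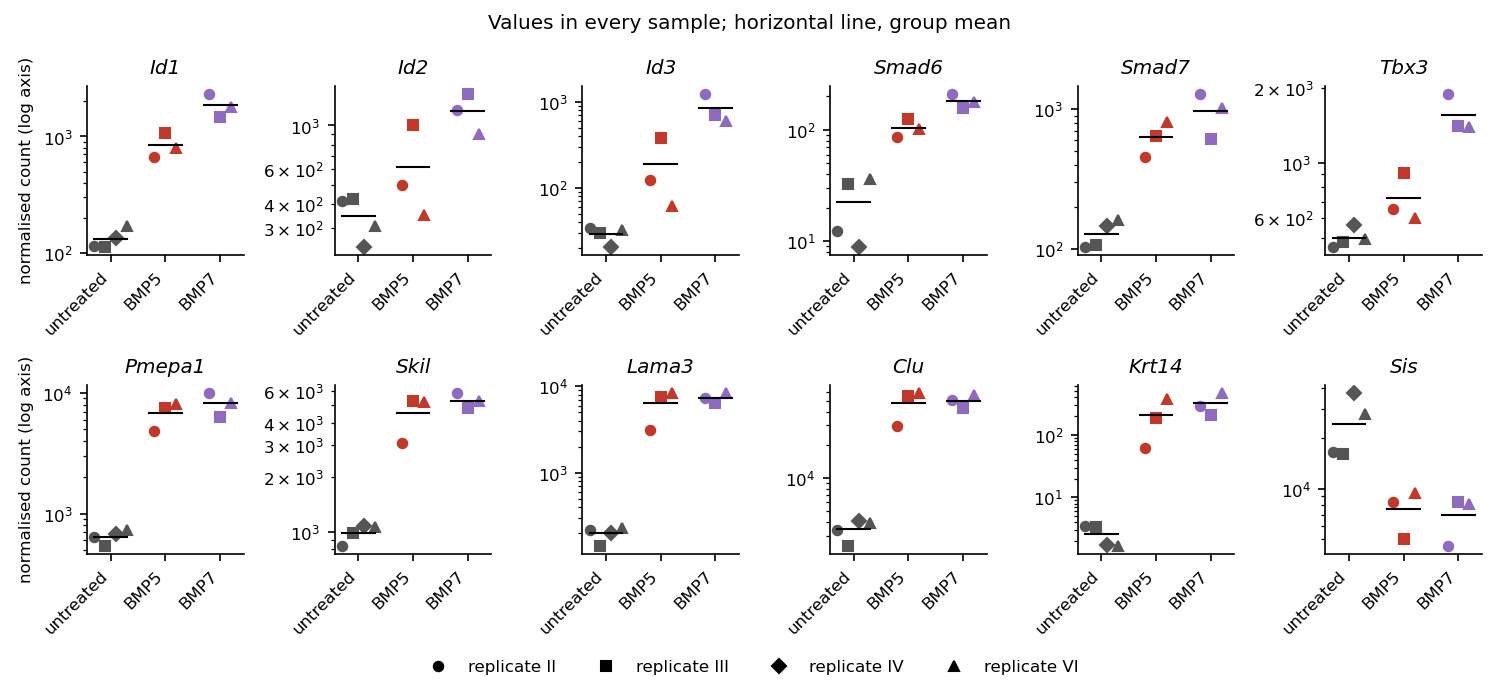
Normalised counts on log axes in every untreated, BMP5 and BMP7 sample, with 1 panel per gene, marker shapes for replicate numbers and a line at the group mean. BMP5 replicate VI is low for Id2 and Id3, whereas BMP5 replicate II is the lowest of the 3 for Pmepa1, Skil, Lama3, Clu and Krt14.

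Receptors and Smads of the pathway changed in part. Of 12 receptor genes 8 were tested and 3 were higher. Acvr1, which encodes the type I receptor ALK2, was at 372 to 411 in untreated and 763 to 1210 in BMP5 samples (log2 fold change 1.40, limma adjusted p 1.68e-07). The type II receptors Bmpr2 (1.04) and Tgfbr2 (0.78) also rose, and their groups did not overlap. Bmpr1b stayed between 0 and 1.77 in the 7 samples. Of the 6 Smad transducers Smad2 (0.24), Smad3 (0.68) and Smad5 (0.42) were higher; the call of Smad2 was lost without BMP5 replicate III (adjusted p 0.0651) or VI (0.0665). Smad9 reached at most 18.5 in any of the 7 samples.

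Among 16 ligand genes of the superfamily 10 were tested, 5 were higher and 1 was lower. Bmp3, which encodes a ligand that opposes other BMPs, was at 1330, 1000, 1290 and 1020 in untreated samples and at 251, 65.8 and 159 with BMP5. It fell by 3.05 on the log2 scale (limma adjusted p 2.17e-05), with every BMP5 sample far below every untreated one. Tgfb1 was at 64.8, 91.3, 50.6 and 56.2, and at 205, 481 and 548 with BMP5 (2.54, limma adjusted p 2.19e-06). Bmp8b (1.42) and Bmp1, a procollagen protease named with the BMPs (1.73), rose. Bmp4 had 1 read over the 4 untreated samples and 2.69 to 17.6 normalised counts with BMP5, a ratio of 57.5 with an exact counting interval of 9.36 to 2241. Inhba, a subunit of activin, was at 0.826 to 9.77 and at 14.8 to 23.3, with a limma adjusted p of 0.0414; the call was lost without any 1 of BMP5 replicates II, III and VI or untreated replicates III and VI (adjusted p 0.0764 to 0.137). Bmp5 itself had 0 reads in all 7 samples.

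Most genes known as Tgfb targets rose. Of 18 on the list 17 were tested, 15 were higher, Tgfbi was lower and Col4a1 did not pass the test, with a median log2 fold change of 2.17. Pmepa1, an inhibitor of Tgfb signalling that sequesters Smad2 and Smad3, was at 638, 535, 672 and 730 in untreated samples and at 4870, 7490 and 8050 with BMP5 (3.38 ± 0.22, limma adjusted p 2.19e-08). Skil, a co-repressor of Smads, was at 828 to 1070 and at 3100 to 5280 (2.17). Itgb6 (an integrin subunit that activates latent Tgfb), Timp3 and Thbs1 (an activator of latent Tgfb) rose by 2.30, 3.59 and 3.42 on the log2 scale. Fn1, the fibronectin gene, was at 20.4, 17.4, 40.8 and 20.6 in untreated samples and at 184, 552 and 328 with BMP5 (3.72, limma adjusted p 5.77e-06). For Ccn1, Ccn2 and Thbs1, untreated replicate II stood above the other untreated samples, with 837, 437 and 1620. Both lists name known targets of each pathway, but their members were chosen with earlier results of these data known. The counts of members that rose are therefore a description. Whether BMP5 acted through Smad2 and Smad3 was not tested.

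Adhesion genes of the basal side rose with them. Of 21 integrin and basement membrane genes 19 were tested, 15 were higher and Hspg2 was lower (median 1.10). Lama3, the alpha chain of laminin-332, was at 217, 139, 200 and 230 in untreated samples and at 3090, 7560 and 8410 with BMP5. The untreated values lay far below the lowest treated one (log2 fold change 4.91 ± 0.29, limma adjusted p 5.00e-09). Lamb3, its beta chain, rose by 1.75. Among integrins Itgb8 rose by 3.25, Itgav by 2.13, Itga2 by 1.68, Itgb5 by 1.67 and Itgb4, the hemidesmosome subunit, by 1.31. The lower call of Hspg2, the perlecan gene (adjusted p 0.0472), was lost without any 1 of BMP5 replicates III and VI or untreated replicates II, III and IV (0.0761 to 0.29). Alcam, an adhesion molecule of the immunoglobulin family, and Cgnl1, a junction protein, were among the 8 genes with the smallest p, with log2 fold changes of 1.41 and 1.49.

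Cytoskeletal genes followed the same direction. Of 17 actin and contractile genes tested 14 were higher and 0 were lower (median 1.01), among them Tpm2 (2.47), the filamin Flna (1.88) and Cnn2 (1.59). Actb was at 40700 to 48900 in untreated samples and at 71600, 103000 and 125000 with BMP5 (1.09). Of 10 keratins tested 9 were higher and 0 were lower (median 1.54). Krt8, Krt18 and Krt19, the keratins of simple epithelium, rose by 1.42, 1.51 and 1.40. Krt7, a ductal keratin, was at 4890 to 6180 and at 16200, 26200 and 35100 (2.16, limma adjusted p 2.36e-06). Krt14, a keratin of stratified epithelium, was at 3.55, 3.32, 1.77 and 1.65 and at 61.9, 186 and 380, a separation of the groups that held in every sample. Krt6a (0 to 1.78, then 8.97 to 26.5) and Krt16 (0 to 0.888, then 2.69 to 39.8) rose from the floor, with ratios of means of 20.3 (counting interval 7.48 to 76.7) and 116 (20.8 to 4763). Krt5, the usual partner of Krt14, was at 0 to 2.74 in all 7 samples.

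The list of fetal-like and regenerative epithelial genes had the highest median of the 24 lists, 2.40. Lists and members were chosen with earlier results of these data known, so this rank is a description. Of its 18 tested members 16 were higher and 0 were lower. Clu, the secreted chaperone clusterin that marks revival stem cells after injury, was at 3360, 2390, 4110 and 3900 in untreated samples and at 29500, 56100 and 59300 with BMP5 (3.78 ± 0.31, limma adjusted p 1.55e-07). Anxa8 was at 122 to 178 and at 1040, 2200 and 3010 (3.67), and Anxa1 rose by 3.28 and Anxa3 by 2.05. Ly6a, which encodes Sca-1, was at 312 to 783 and at 1390 to 2110 (1.57). F3, whose promoter is shown above, was at 758 to 1260 and at 4030, 11100 and 12900 (2.97). Il1rn, the interleukin-1 receptor antagonist, rose by 2.54, the cathepsin gene Ctse by 4.10, Ptgs2, the inducible cyclooxygenase, by 3.38, and the EGF receptor ligand Areg by 1.60. Ereg, another such ligand, and Msln did not pass the test, and with the replicate block their adjusted p were 0.0425 and 4.47e-05.

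Of 19 villus tip genes tested 12 were higher and 0 were lower (median 1.20). The count of higher genes was 8 without BMP5 replicate VI and 9 without BMP5 replicate III, and the median was 0.85 without VI. Pmp22 was at 5.32 to 10.7 and at 87.9, 192 and 330 (4.37), and Nt5e, the ecto-5'-nucleotidase CD73, was at 9.13 to 27.5 and at 94.2, 207 and 294 (3.30). Egfr (1.96), Krt20 (2.05), Fos (2.31) and the Myc antagonist Mxd1 (1.98) rose. Ada, the adenosine deaminase, was at 396, 437, 536 and 569 and at 586, 1130 and 2550; the groups did not overlap, yet the limma adjusted p was 0.11, and 0.0016 with the replicate block. Neat1, Xdh and Tmprss2 did not pass the test. Of these 19 genes 17 were highest in BMP5 replicate VI and 16 were lowest in replicate II.

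Digestive genes of the enterocyte brush border fell. Of 14 tested 9 were lower and 0 were higher (median -1.20), and 5 were lower without BMP5 replicate III. Sis, sucrase-isomaltase, was at 16700, 16200, 37500 and 27900 in untreated samples and at 8270, 5000 and 9420 with BMP5 (-1.66 ± 0.34, limma adjusted p 0.00119). The groups did not overlap, although untreated replicates IV and VI were well above II and III. The peptidases Anpep, Enpep and Mep1a had log2 fold changes of -1.56, -1.83 and -1.50, and Treh, trehalase, of -1.81. Without BMP5 replicate III the calls of Enpep and Treh were lost (adjusted p 0.0743 and 0.0666). Lct, lactase, and Mgam did not pass the test.

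Nutrient transporters fell in part. Of 14 tested 6 were lower, 1 was higher and 7 did not pass (median -0.90). With the replicate block 9 were lower and 2 higher, and without BMP5 replicate III only 3 were called. Slc6a19, the neutral amino acid transporter, was at 706, 839, 1290 and 1660 and at 291, 174 and 400 (-1.96, limma adjusted p 0.00023). Slc5a1, the sodium-glucose transporter SGLT1, was at 7040 to 10700 and at 2310 to 3600 (-1.58), and the fructose transporter Slc2a5 fell by 1.78. Slc2a1, the glucose transporter GLUT1, was the member that rose (0.91); that call was lost without BMP5 replicate III (adjusted p 0.092), BMP5 replicate VI (0.091) or untreated replicate IV (0.062). The peptide transporter Slc15a1 did not pass the test, with an adjusted p of 0.118, and 0.000941 with the replicate block.

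Genes of lipid uptake and metabolism went both ways. Of 24 tested 4 were higher, 5 were lower and 15 did not pass (median -0.20), and without BMP5 replicate III 4 were called. The median was -0.06 without untreated replicate VI, -0.08 without BMP5 replicate II and -0.34 without BMP5 replicate VI or after quantile normalization. Plin2, a lipid droplet coat protein, rose by 1.00 and Dgat2 by 1.01. Fabp2 (-1.21), a fatty acid-binding protein, and the sterol transporters Abcg8 (-1.04) and Npc1l1 (-0.72) were among the 5 lower. Without BMP5 replicate III the calls of Abcg8 and Npc1l1 were lost (adjusted p 0.0874 and 0.0744). Apob, the core protein of chylomicrons, was at 17000, 17000 and 18400 in untreated II, III and VI, at 37700 in untreated IV and at 37200, 39600 and 38500 with BMP5. Its limma adjusted p was 0.0923, and 8.67e-05 with the replicate block, in which untreated replicate IV has no BMP5 partner. Apoa1 and Apoa4 did not pass the test.

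**Figure D3:**
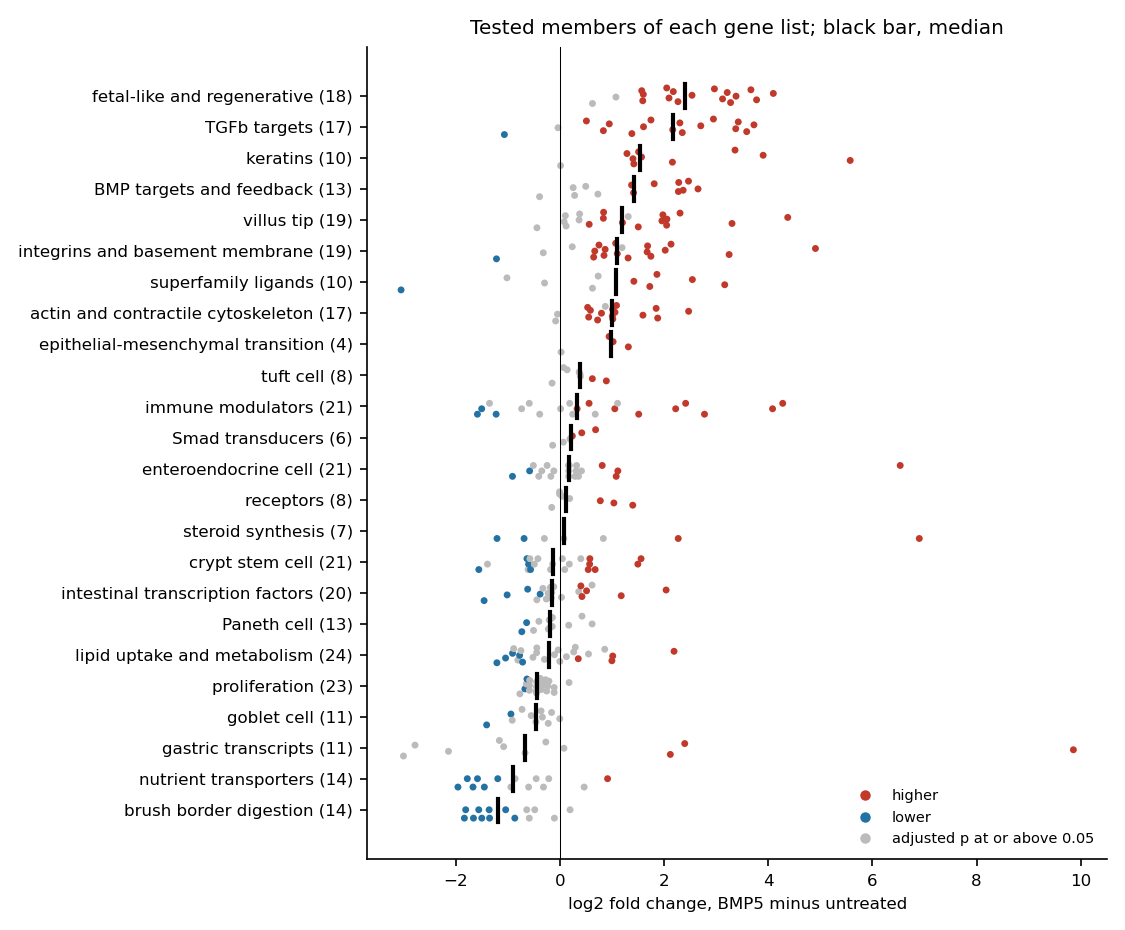
Log2 fold change (BMP5 minus untreated) of each tested member of 24 gene lists, with the number tested in brackets. Red and blue points were called, grey points were not, and black bars mark list medians, from 2.40 (fetal-like and regenerative) to -1.20 (brush border digestion).

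The genes that rose most included Cym of the stomach, Pyy of the endocrine gut and Cyp21a1 of steroid synthesis. Cym, which encodes the milk-clotting protease chymosin of the newborn stomach, was at 2.66, 0, 4.44 and 26.4 in untreated samples and at 2300, 4230 and 9230 with BMP5 (9.86 ± 1.13, limma adjusted p 4.78e-06). Its lowest treated value was far above the highest untreated one, which was in replicate VI, and replicate VI was highest in both groups. Cyp21a1, the steroid 21-hydroxylase, had 0 reads in all 4 untreated samples and 44.8, 179 and 205 normalised counts with BMP5, at least 55.6-fold higher against a floor of 3 reads per library; a near-identical pseudogene makes this count uncertain. Pyy, the gut hormone peptide YY, was at 0.83 to 2.66 and at 48.4, 537 and 508, a ratio of means of 213 with a counting interval of 107 to 490. Alox12, the platelet-type lipoxygenase, was at 0 to 2.49 and at 39.5, 216 and 281 (ratio 168, counting interval 70.7 to 513). In Pyy and Alox12 replicate II was the lowest of the treated samples by a wide margin.

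The other top rises were Acsbg1, an acyl-CoA synthetase (5.36), Aldh1a3, a retinaldehyde dehydrogenase that makes retinoic acid (4.88), Rab11fip5 (4.85), Lrrc4 (4.71), Serpina9 (4.68) and Schip1 (4.54). Aldh1a3 was at 71.0 to 154 in untreated samples and at 1530, 4530 and 4780 with BMP5. Tnfrsf11b, which encodes osteoprotegerin, was at 79.8 to 183 and at 1830, 3450 and 3030 (4.53, limma adjusted p 5.00e-09). Blvrb, biliverdin reductase B (2.53), had an adjusted p equally low. The choice of the largest rises required groups that did not overlap.

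Slc14a1, a urea transporter, was at 190, 132, 181 and 95.8 in untreated samples and at 44.0, 6.48 and 5.47 with BMP5 (-3.49, limma adjusted p 0.000378), the largest fall among called genes with a mean of 50 or more over the 7 samples. Rbp7, a retinol-binding protein, was at 68.3 to 112 and at 25.1, 11.1 and 1.82 (-3.24). Tmem182 fell by 3.05, Mylk3 by 2.94, the secreted Wnt antagonist Sfrp5 by 2.88, the carboxylesterases Ces1f and Ces1e by 2.72 and 2.45, the glutathione transferase Gstm3 by 2.56, the transporter Slco2b1 by 2.36, the mitochondrial arginase Arg2 by 2.33 and the serotonin transporter Slc6a4 by 2.30. Gstm3 was at 4060 to 8760 and at 1180, 495 and 1750. Ces1e, Ces1f and Gstm3 belong to families of near-identical copies, between which reads can be split, so their values are uncertain.

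Among 20 intestinal transcription factors 5 were higher and 4 were lower, with 7 and 8 in the replicate block and 2 and 3 without BMP5 replicate III. Vdr, the vitamin D receptor, was at 4940, 4960, 5520 and 5150 and at 2620, 1530 and 1640 (-1.45, limma adjusted p 2.16e-06). Hnf4g (-1.01) and Cdx1 (-0.62) fell, while Cdx2 did not pass the test. Prdm1, a repressor expressed in the fetal intestine, was at 24.0 to 58.6 and at 122, 261 and 187 (2.04), and Onecut2 (1.18) rose. Klf5 (0.42) and Tbx3 (0.51) were called higher and Gata4 lower, but without BMP5 replicate III their adjusted p were 0.0612, 0.209 and 0.081. The calls were also lost without BMP5 replicate VI for Klf5 (0.0904) and without single untreated samples for Tbx3 (II, III and VI, up to 0.0688).

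Stem cell genes did not move as a block. Of 21 tested 6 were higher, 4 were lower and 11 did not pass (median -0.14). The median was 0.08 without BMP5 replicate VI, -0.07 without untreated replicate II, -0.23 without BMP5 replicate II and -0.22 after quantile normalization. Genes called lower numbered 7 without BMP5 replicate II and 2 without BMP5 replicate III. Smoc2 was at 5960 to 7130 and at 3700, 1550 and 1880 (-1.56, limma adjusted p 0.00111), and Lrig1 (-0.63) was lower. Hopx (-0.60) and Msi1 (-0.56) were called lower as well, but each call was lost without any 1 of 4 samples, among them BMP5 replicate III (adjusted p 0.0888 and 0.15) and, for Hopx, BMP5 replicate VI (0.177). Cd44, a hyaluronan receptor, was at 3350 to 4000 and at 8180, 12800 and 11300 (1.56, limma adjusted p 1.32e-07), and the Wnt feedback genes Nkd1 (1.50) and Rnf43 (0.54) and the ephrin receptors Ephb2 (0.58) and Ephb3 (0.68) were higher. Lgr5, the R-spondin receptor of stem cells, was at 5210, 5050, 3150 and 3950 and at 4010, 2640 and 2040, an overlap of the groups with a limma adjusted p of 0.294. Olfm4 was at 84000 to 110000 and at 64800, 20400 and 32900. The Olfm4 groups did not overlap, with a limma adjusted p of 0.0632, and of 0.0266 with the replicate block. Axin2, a Wnt target, had an adjusted p of 0.0646, and of 0.00115 with the replicate block.

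Of 23 proliferation genes 2 were lower, Aurka (-0.67) and Rrm2 (-0.63), 0 were higher and 21 did not pass (median -0.43). The count of 2 is a share near the 9.87% of all genes tested that were called lower. The count was 0 without BMP5 replicate III, 0 without BMP5 replicate VI, 0 without untreated replicate III, and 1 without untreated replicate II or VI; it was 4 without BMP5 replicate II and 7 when only the groups compared entered the fit. The median was -0.20 without BMP5 replicate VI. All 23 were lowest in BMP5 replicate VI, and 20 were highest in BMP5 replicate II. Mki67, for example, was at 11200, 10900, 14500 and 7480 in untreated samples and at 11500, 8730 and 4840 with BMP5.

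Of 53 secretory lineage genes tested 12 were called (22.6%), a share near the 26.3% of all genes. Of 13 Paneth cell genes 2 were lower, the defensins Defa21 (-0.73) and Defa22 (-0.64), whose near-identical copies make their counts uncertain. Only 1 was lower without BMP5 replicate III, untreated replicate II or untreated replicate IV, and 4 were called by DESeq2. Without BMP5 replicate VI the count was 2, but the call of Defa22 was lost (adjusted p 0.099). Lyz1, lysozyme, was at 45000 to 57600 and at 36000 to 49700 and did not pass. Of 11 goblet cell genes tested 2 were lower, Zg16 (-1.41) and Agr2 (-0.94), 4 with the replicate block and 1 without BMP5 replicate VI, where the adjusted p of Agr2 was 0.105. Of 8 tuft cell genes tested 2 were higher, Avil (0.89) and Trpm5 (0.62); their adjusted p were 0.0516 and 0.139 without BMP5 replicate III, and 0.0889 and 0.0822 without BMP5 replicate VI. Of 21 enteroendocrine genes 4 were higher and 2 were lower. Besides Pyy these were the hormone genes Sct (secretin, 1.11) and Nts (neurotensin, 1.08), Tph1, the enzyme of serotonin synthesis (0.81), and the factors Neurog3 (-0.91) and Insm1 (-0.58). Sct was at 25.8 to 35.5 and at 42.2, 140 and 45.6. The enteroendocrine count was 2 without BMP5 replicate III and 3 without BMP5 replicate VI, untreated replicate III or untreated replicate IV. The adjusted p of Neurog3 was 0.0482, and 0.0538 with the replicate block. Without BMP5 replicate III the adjusted p of Sct was 0.124, of Tph1 0.205, of Neurog3 0.213 and of Insm1 0.241. Without BMP5 replicate VI that of Nts was 0.053. The Tph1 call was also lost without BMP5 replicate II or untreated replicates III, IV or VI (0.0683 to 0.114). That of Neurog3 was also lost without BMP5 replicate VI or any 1 untreated sample (0.0559 to 0.139). For Insm1 the same held for BMP5 replicate VI and untreated replicates II, III and IV (0.0552 to 0.0904). In bulk samples fewer cells of a type and less RNA per cell cannot be told apart.

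Of 16 gastric transcripts 11 were tested and 3 were higher, a share near the 26.3% of all genes tested that were called. The 3 were Cym, Vsig1, a junction protein of stomach epithelium (2.40), and Gkn3 (2.12). Untreated replicate IV stood apart here, with Gkn1 at 453, Gkn2 at 680, Muc5ac at 680 and Tff1 at 678, against at most 63.9 for any of these in the other 6 samples. The median of the list was -0.67 with that sample, 0.03 without it, 0.01 with the replicate block and -0.33 without BMP5 replicate VI, and 3 members were called higher without it as well. Of 7 steroid synthesis genes tested 2 were higher, Cyp21a1 and Hsd11b2, which inactivates glucocorticoids (31.1, 29.9, 50.6 and 41.3, then 114, 231 and 237). The other 2 called were lower, Nr5a2, the nuclear receptor LRH-1 (-1.21), and Fdxr (-0.69). Setting Cyp21a1 to its lower bound left the list median at 0.08. That median had no stable sign: it was -0.30 when only genes with a mean of 50 or more were tested, -0.06 without BMP5 replicate II, -0.05 without untreated replicate IV, -0.02 after quantile normalization and up to 0.15 without untreated replicate III.

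Of 21 immune modulators tested 9 were higher and 3 were lower (median 0.33, but 0.21 with the replicate block and 0.10 when only genes with a mean of 50 or more were tested). Cxcl16, a transmembrane chemokine, was at 585 to 922 and at 2410, 3640 and 3900 (2.22, limma adjusted p 1.55e-07). Lcn2, lipocalin-2, was at 0.83 to 8.87 and at 33.2, 46.3 and 131 (4.28), and Cxcl5 was at 0 to 3.55 and at 24.1 to 40.1 (4.08). Ccl25, the small-intestinal homing chemokine, was at 2600 to 3570 and at 1460, 679 and 1070 (-1.58), and Pigr, the receptor that carries IgA across the epithelium, fell by 1.22. The summed level of 6 immune cell markers was 30.2 to 50.7 in untreated and 61.2 to 84.3 in BMP5 samples; Csf1r was called higher, the other tested marker, Cd68, was not (adjusted p 0.0188 with the replicate block), and the rest reached at most 13.7. Their part in the changes of this list was not tested.

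Epithelial-mesenchymal transition genes were mostly too low to test, with 4 of 13 passing the filter. Cdh1, E-cadherin, rose by 0.94, and the membrane protease Mmp14 by 1.02. S100a4 (1.31) was called higher, but not without BMP5 replicate III (adjusted p 0.097), BMP5 replicate VI (0.148) or untreated replicate II (0.107). Snai1, Zeb1, Zeb2 and Twist1 stayed at or below 4.56 in all 7 samples. Snai2, the transcription factor Slug, was at 16.0, 13.3, 18.6 and 15.7 in untreated samples and at 0.897, 1.85 and 1.82 with BMP5. It lay below the filter, and when genes with a mean of 1 or more were tested its limma adjusted p was 0.000285.

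The 3 BMP5 samples differed in how far they lay from the mean of the untreated samples. Each distance was taken from that common mean and not from the untreated sample of the same replicate number. It can therefore include differences between replicates that were present without BMP5. Whether the size of the response differed between replicates was not tested. Over the 2429 higher genes the median log2 distance from the untreated mean was 0.61 in replicate II, 0.95 in III and 1.04 in VI, and replicate II was nearest to the untreated mean for 80.9% of them. Over the 1455 lower genes the medians were -0.41, -0.65 and -0.66, and replicate II was nearest for 75.1%. These genes were chosen in part by these same values, so the figures are a description. Lists did not all follow that order. Tgfb targets had medians of 1.66, 2.44 and 2.41 in replicates II, III and VI, and 14 of 17 tested were lowest in II. BMP targets had medians of 1.01, 2.25 and 1.07. Brush border genes were at -1.12, -1.65 and -0.83, with 11 of 14 highest in replicate VI, the replicate number that was also high for these genes among untreated samples. Proliferation genes were at -0.05, -0.33 and -0.82.

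**Figure D4:**
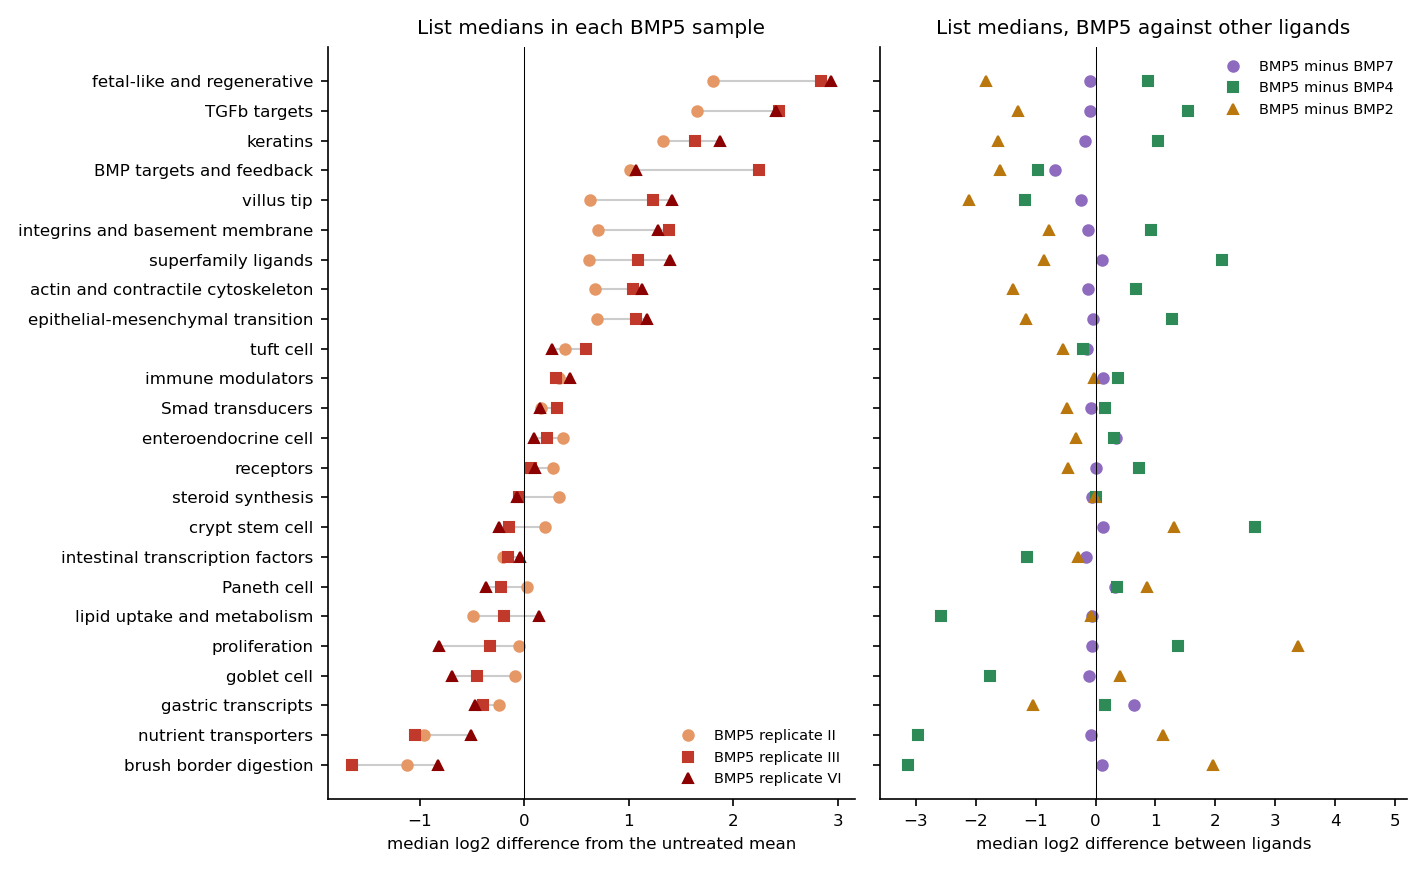
Left, median log2 difference from the untreated mean over the tested members of each list in BMP5 replicates II, III and VI. Right, median log2 difference between BMP5 and BMP7, BMP4 or BMP2 over the same members; the BMP7 points lie near 0, with -0.68 for BMP targets and 0.63 for gastric transcripts the farthest.

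BMP7, the relative in the same ligand subgroup, was compared with BMP5 directly. Of 14746 genes 2 differed (0.0136%). An unadjusted limma p under 0.05 was found for 347 genes, a share below the 0.05 that chance alone would give. The replicate block gave 861 such genes. Tbx3, a T-box repressor, was at 651, 914 and 603 with BMP5 and at 1890, 1400 and 1390 with BMP7 (log2 difference -1.12, 95% interval -1.49 to -0.74, limma adjusted p 0.0468). Reads of Tbx3 cannot be told apart from those of its antisense gene Tbx3os2, because the strand used in counting is not given. Ptprt, a receptor tyrosine phosphatase named because it was the other gene called, was at 42.2, 34.3 and 51.1 and at 10.9, 9.11 and 16.4 (1.75, interval 1.16 to 2.33, limma adjusted p 0.0468). Across alternatives the adjusted p of Tbx3 ran from 1.92e-05 to 0.634 and that of Ptprt from 0.000379 to 0.741. With the replicate block 6 genes differed, adding Id3, Enpp3, Gcg and Vim, each at an adjusted p of 0.0471. By edgeR the count was 4, by DESeq2 23, and it was 0 without BMP5 replicate II, BMP5 replicate VI, BMP7 replicate II or BMP7 replicate III and 9 without BMP5 replicate III.

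Id1 and Id3 were at lower values with BMP5 than with BMP7 in every sample, without passing the test. Id3 was at 123, 378 and 61.1 against 1240, 698 and 594, without overlap (log2 difference -2.49, interval -3.43 to -1.54, limma adjusted p 0.109). Id1 was at 667, 1070 and 792 against 2330, 1480 and 1800 (-1.15, interval -1.59 to -0.72, limma adjusted p 0.109). The ranges overlapped for Pmepa1, of the Tgfb target list, and for Lama3, of the integrin and basement membrane list. Pmepa1 was at 4870 to 8050 and at 6250 to 9980 (-0.27, interval -0.77 to 0.23), and Lama3 was at 3090 to 8410 and at 6420 to 8400 (-0.33, interval -0.98 to 0.31). The intervals leave room for differences in either direction: for 79.8% of the genes tested the whole interval lay within 2-fold. The median difference of the 13 BMP targets was -0.68 and that of the 17 Tgfb targets -0.09, beside -0.01 for all genes. Gcg, the proglucagon gene, was at 389 to 678 in untreated samples, at 732, 329 and 465 with BMP5 and at 156, 138 and 129 with BMP7. Vim, vimentin, was at 118 to 174 with BMP5 and 49.0 to 85.6 with BMP7.

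Most genes tested differed between BMP5 and BMP4. Of 14746 genes 8863 differed (60.1%), with 4668 higher (31.7%) and 4195 lower (28.4%) in BMP5 than in BMP4. Rescaling every sample to the same total moved the median difference of all genes from 0.02 to 0.38 and the split to 6925 higher and 2613 lower. Of 14 brush border genes 13 were lower with BMP5 than with BMP4 and 0 were higher (median -3.14); Sis averaged 7563 with BMP5 and 82400 with BMP4. Of the 24 lipid genes 22 were lower with BMP5 and 0 were higher (median -2.58). In contrast 19 of 21 stem cell genes and 19 of 23 proliferation genes were higher with BMP5 than with BMP4. Tgfb targets were higher in 9 of 17 and lower in 2, and BMP targets were lower in 7 of 13 and higher in 3. The genes farthest apart by the naming rule were Zg16, Tbx3os2, Slc28a1, Gm43552 and Piwil2, lower with BMP5, and Gm830, Fstl4, Prelp, H2ac24 and Cym, higher. Zg16, a lectin-like protein of goblet cells and enterocytes, averaged 141 with BMP5 and 14967 with BMP4, and Cym averaged 5253 and 33.5. Tbx3os2 is antisense to Tbx3, and the strand used in counting is not given in the sources used here, so reads of the pair cannot be told apart.

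BMP2 and BMP5 differed for 9581 genes (65.0%), with 4832 higher (32.8%) and 4749 lower (32.2%) in BMP5. Rescaled to equal totals, the median difference moved from -0.002 to 0.41 and the split to 7251 and 2614. Here brush border genes were higher with BMP5 in 11 of 14 and lower in 1, opposite in sign to the comparison with BMP4. All 23 proliferation genes were higher with BMP5 than with BMP2 (median 3.37). Lgr5 averaged 2897 with BMP5, 26.9 with BMP4 and 9.49 with BMP2, beside 4340 in untreated samples. Tgfb targets were lower with BMP5 than with BMP2 in 13 of 17, fetal-like genes in 14 of 18 and keratins in 9 of 10. Pyy averaged 364 with BMP5 and 11310 with BMP2. Cym went the other way, at 5253 ± 3577 (SD, n = 3) with BMP5, 54.5 with BMP2 and 1820 ± 1127 (SD, n = 3) with BMP7. Olfm4 and Prelp were also among the 5 genes farthest above BMP2, with H2ac24, a histone gene of a near-identical family, and Tgm4, Piezo2, H3c14 and the unnamed locus 4930438A08Rik were, with Pyy, the 5 farthest below.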

How the data were processed

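RNA of mouse small-intestinal organoids was sequenced with a poly(A) library kit in 2 NextSeq 500 runs, which the labels do not assign to samples. The deposited table gives a signal per gene and sample, read counts divided by a size factor per sample, rounded by the authors to 3 significant digits. The submitters' processing notes name Trim Galore, Salmon, DESeq2 and GRCm39; their roles, the annotation and strand setting are not given in the sources used here. Whole reads were recovered from the steps between low values: 100% of 180721 values of up to 20 reads lay within 0.1 of a whole number. High values carry the rounding error.

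Values were tested as log2(value + 1) with limma 3.58.1 (R 4.3.3, intensity trend, two-sided, Benjamini-Hochberg over 14746 of 29413 genes at a mean of at least 10, threshold 0.05), in 1 fit of 6 groups and 20 samples. Fold changes are on that scale, which understates changes of low genes. The count tests edgeR 4.0.16 and DESeq2 1.42.0 on recovered reads, other pseudocounts, filters and scalings, a replicate block, and leaving out each replicate were alternatives. Every comparison with untreated samples shares those 4 samples, and every comparison with another ligand shares the 3 BMP5 samples. The replicate numbers of the titles were checked by correlating deviations of BMP5 and untreated samples from their group means. The 3 same-numbered pairs correlated at 0.158 to 0.262, all above 0.1, and the other 9 at -0.2 to 0.076. The numbers were therefore taken to pair the samples. Deviations from a group mean cancel out over the group, so the low correlations of the other 9 pairs are in part forced. The main fit leaves this pairing out, and the replicate block is the alternative that uses it. The scripts were tested on simulated data.

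Genes named are the 12 largest called rises and falls without overlap at a mean of at least 50, the 8 smallest p-values, Id1 to Id4, Smad6 and Smad7, the 4 smallest p-values of each of 24 lists, and the 5 highest and 5 lowest against each other ligand; other list members serve as examples. Some genes that this rule selects are not reported here. Members and lists were chosen with earlier results of these data known. Recovered depth was 21705913 to 24784834 reads per library of the 7. Exact counting intervals (95%) and the floor of 3 reads per library cover counting error only, since PCR copies of a molecule were not marked.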

Additional observations from a re-analysis of the deposited data

Results flagged for a closer look

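For 189 genes of the text that varied over the 4 untreated samples, the gap of 1 sample to the nearest other was taken as a share of the group's range. In 20 genes this share exceeded Dixon's 95% critical value for 4 samples. Chance gives about 1 in 20 groups only for normally distributed values in genes not chosen by them. Counts near the floor are not normal, and Gkn1, Gkn2, Muc5ac and Tff1 are named in the text because untreated replicate IV stood apart. The tally can therefore not be set against that rate. Untreated replicate IV was the highest for the gastric genes (gap in brackets) Gkn1 (0.9784), Gkn2 (0.9921), Muc5ac (0.9935) and Tff1 (0.9377), and for Apob (0.9324), Fn1 (0.8632), Lcn2 (0.898), Neurog3 (0.8434) and Bmpr1b (1.0), and the lowest for Rrm2 (0.8636). Untreated replicate II was the highest for Bambi (0.9143), Ccn1 (0.9277), Ccn2 (0.8293), Smad2 (0.8889), Krt5 (1.0), Krt16 (1.0) and Twist1 (1.0). Untreated replicate VI was the highest for Blvrb (0.8462) and Cym (0.8318), and untreated replicate III for Bmp4 (1.0). For Bmp4, Bmpr1b, Krt5, Krt16 and Twist1 the gap rests on at most 3 reads in 1 sample.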

How the results depend on the processing

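Every alternative kept more genes higher than lower with BMP5 against untreated, except quantile normalization. The total was 3419 to 4810 over other pseudocounts, filters, scalings and tests, and 5738 with the replicate block. Lower genes numbered 2413 after quantile normalization and 2593 with the replicate block, against 1455. Leaving out 1 sample gave totals of 2515 to 4298, with 1707 to 2550 higher and 713 to 1748 lower. For BMP5 against BMP7 the count of 2 became 23 by DESeq2, 4 by edgeR, 4 with a mean of at least 1, 4 with no filter, 4 with a pseudocount of 5, 6 with the replicate block, 1 after quantile normalization and 1 with the same total. It was 0 with a mean of at least 50 (limma, 234 genes at an unadjusted p under 0.05) and 0 with a pseudocount of 0.1 (321). Leaving out 1 sample gave 0 to 9. Total counts against BMP2 and BMP4 stayed within 1.5 times under every alternative, but with the same total the lower genes fell from 4749 to 2614 against BMP2 and from 4195 to 2613 against BMP4. Beyond the blocked values printed in the report, the replicate block changed no call among the genes named. Genes that were not called and changed sign when 1 sample was left out ranged from -0.15 to 0.577 for Apoa1, -0.425 to 0.35 for Col4a1, -0.15 to 0.567 for Lct, -3.127 to 0.01 for Muc5ac, -0.586 to 0.786 for Neat1, -0.458 to 0.576 for Smad9, -1.729 to 0.028 for Tff1, -0.149 to 0.232 for Xdh, -0.065 to 0.127 for Pecam1 and, against BMP7, -0.597 to 0.125 for Lama3 (log2 fold changes). Others that changed sign and were not called were Col4a1 (0.464), Tff1 (0.008) and Pecam1 (-0.021) with the replicate block, Pecam1 (-0.008) with the same total, and Smad4 (0.00) and Smad9 (-0.453) after quantile normalization. The causes were not tested. Genes near 3 reads per library were limited by depth.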
